A study of Saccharomyces cerevisiae with 13 samples.

Results

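Nascent chromatin from yeast cells lacking the histone acetyltransferase gene RTT109 was compared between 8 and 15 min of chase. The comparison rests on 4 of the 13 libraries of the series, namely replicates 1 and 2 at 8 min and replicates 1 and 2 at 15 min. All 4 came from the same rtt109D strain, a W303 derivative that takes up and phosphorylates thymidine analogs through ADH-hENT1 and GDP-TK(7x) transgenes, so no group had an intact RTT109 and the comparison is one of time only. Asynchronous cultures received 10 µM EdU, a clickable thymidine analog, for 5 min and then 5 mM thymidine for 5 min, and the times count from the end of that thymidine incubation. Each replicate was 1 culture from which aliquots were taken and fixed at successive times. Chromatin was cut with micrococcal nuclease (MNase), which spares nucleosomal DNA, and EdU-labelled fragments were biotinylated and captured before sequencing. A bulk library, made from total chromatin without capture, gives the steady-state level and has no replicate. Since cultures were asynchronous, each library averages DNA that was copied throughout S phase.

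Behind a replication fork, parental histones and newly made histones are both put on DNA. New H3 is acetylated at lysine 56 by Rtt109 together with the chaperone Asf1, and this mark favours its hand-over to the deposition factors CAF-1 and Rtt106. In yeast most genes have a nucleosome-depleted region (NDR) just upstream of the transcription start site (TSS), followed by a strongly placed +1 nucleosome and a regular array over the gene body. Remodelers such as RSC and SWI/SNF, and general regulatory factors such as Reb1 and Abf1, keep the NDR open. On new DNA this pattern has to be built again, and a fill-in of the NDR is a known feature of chromatin shortly after fork passage.

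The deposited values were MNase fragment coverage in 20 bp bins around the TSS, on a scale where the mean of a library is about 1. The signals of both strands were averaged for each gene. Of 6326 genes in the tables, 547 lie on chromosome XII. They were left out because the whole chromosome is listed at 0 in replicate 2, and 5758 of the remaining genes had values. The smallest step between values in a library was taken as 1 fragment, and values at whole multiples of it gave a mean of 22.6 and 54.1 fragments per bin in replicates 1 and 2 at 8 min, and 23.2 and 49.4 at 15 min. Replicate 2 was therefore the deeper of the pair at both times. Over the genes kept, the mean signal was 0.993 and 1.14 in replicates 1 and 2 at 8 min. It was 0.992 and 1.14 at 15 min, and 1.07 in bulk. Body signals were not rescaled for this, so the higher scale of replicate 2 enters comparisons with bulk and counts of groups without overlap. The deleted gene RTT109 itself lies on chromosome XII. Its body signal in replicate 1 was 0.0264 at 8 min and 0.0675 at 15 min, and 0.0632 in the bulk library, while in replicate 2 it could not be checked. A source label of these samples names a chd1 deletion in place of rtt109D, yet CHD1, a chromatin remodeler gene, had body signals of 1.06 and 1.09 at 8 min and of 0.988 and 0.913 at 15 min. CHD1 was thus covered at about the library mean in all 4 libraries.

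The question put to the average profile was whether the chromatin pattern over genes still changed between 8 and 15 min. It did so in a graded way, with relatively more signal at the 5′ end and relatively less over the gene body at 15 min. The promoter, taken as −150 to 0 bp, was higher at 15 min in both replicates, as was the +1 nucleosome, and the gene body beyond 300 bp was lower. The peaks and troughs of the array were not further apart at 15 min than at 8 min.

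Promoter over body, the mean promoter signal divided by the mean signal from 0 to 1000 bp, came to 0.598 for 8 min replicate 1 and 0.601 for replicate 2, against 0.633 and 0.666 for the 15 min pair. Both 15 min libraries lay above both 8 min libraries, and the rise was 0.0351 in replicate 1 and 0.0650 in replicate 2, for means of 0.599 ± 0.00184 and 0.649 ± 0.0229 (SD, n = 2). The bulk library stood at 0.633, so that replicate 1 at 15 min was at the bulk level and replicate 2 was above it. NDR depth, the lowest signal between −200 and 0 bp relative to the mean from −500 to 1000 bp, was 0.478 in both 8 min libraries and 0.493 and 0.525 at 15 min, with 0.496 in bulk. The NDR was thus less deep at 15 min in both replicates, by 0.0143 in replicate 1 and by 0.0471 in replicate 2. With 2 libraries against 2, the smallest 2-sided exact permutation p is 0.333, so these differences are set against the spread between replicates and carry no test.

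The +1 peak, the nucleosome that covers the start of the gene, had a height of 1.20 and 1.22 at 8 min and of 1.25 and 1.27 at 15 min, against 1.39 in bulk. It rose in both replicates, by 0.0487 and 0.0539, and stayed below the bulk height in all 4 libraries. The 8 min libraries were also below earlier ones, as the +1 height at 2 min was 1.25 and 1.26, and promoter over body came to 0.640 and 0.638 at that time and to 0.602 and 0.612 at 6 min. For both measures 8 min was thus the lowest of the 5 times from 2 to 15 min in each replicate, and for the +1 height 15 min came within 0.01 of the 2 min value. How sharply the array is placed was measured as the peak/trough ratio averaged over nucleosomes +2 to +7. At 8 min it read 1.10 and 1.11, at 15 min 1.10 in both replicates, and in bulk 1.16. These 2 groups overlapped, and the difference of −0.00495 was smaller than the SD of 0.0118 at 8 min. The distance of the whole profile from bulk, a root mean square over the bins from −500 to 1000 bp, fell from 0.0708 and 0.0643 at 8 min to 0.0516 and 0.0476 later. Both 15 min profiles were nearer to bulk than both 8 min profiles, a difference of −0.0179 that shrank to −0.00546 with medians over genes in place of means.

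**Figure D1:**
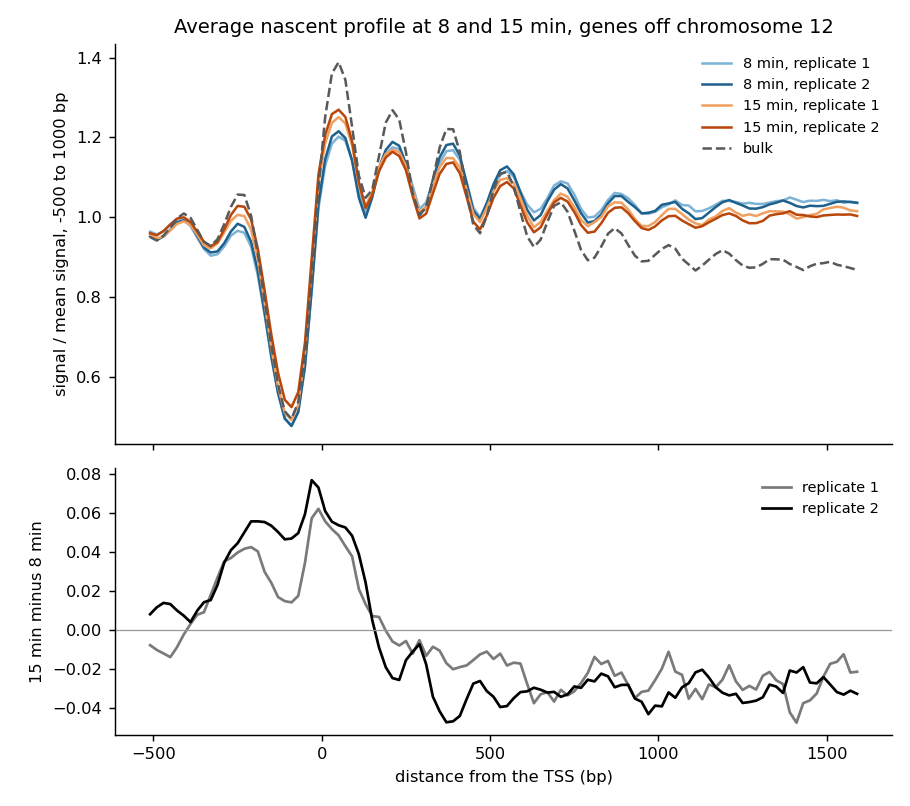
Average signal relative to its mean from −500 to 1000 bp (upper plot) and the difference of 15 min minus 8 min in each replicate (lower plot), against distance from the TSS in bp, for genes off chromosome XII. Both replicates rise from upstream of the TSS to about 100 bp and fall beyond 300 bp, where all 35 bins to 1000 bp are lower at 15 min.

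Bin by bin, the pattern was ordered along the gene. Of the 17 bins from −500 to −150 bp, 11 had both 15 min libraries above both 8 min libraries and 0 had them below. In the promoter all 7 bins were higher at 15 min without overlap, and the mean promoter signal went from 0.645 and 0.647 to 0.676 and 0.705, a rise of 4.84% in replicate 1 and 8.92% in replicate 2. From 0 to 100 bp, where the +1 nucleosome lies, all 5 bins were higher without overlap, by 4.06% and 4.61% on average. The bins from 100 to 300 bp were mixed, with 2 of 10 above and 4 below. All 35 bins from 300 to 1000 bp and all 30 bins from 1000 to 1600 bp were lower at 15 min without overlap, by 2.10% and 3.11% in the former region. Bulk signal in that former region was 1.01, below all 4 nascent libraries. Each profile was divided by its own mean from −500 to 1000 bp, so a rise near the TSS lowers the other bins, those beyond 1000 bp included. Neighbouring bins can share fragments, so the bins counted here are not independent.

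Ranked by the smaller of the 2 replicates' rises, the first bin was centred 10 bp upstream of the TSS, where 1.02 and 1.03 became 1.09 and 1.11. It lies on the upstream shoulder of the +1 nucleosome. By the same rule the first fall was at 930 bp, from 1.03 and 1.03 to 0.996 and 0.991. Within the array, peaks and troughs alike had lower relative signal. The +3 peak went from 1.17 and 1.18 to 1.15 and 1.13, and the trough after +3 from 1.00 and 0.996 to 0.988 and 0.970. The +5 peak and the trough after it were each lower in both replicates as well.

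Gene by gene, promoter over body moved in the same direction as the average, and at 1 gene the move passed the test. The log2 change, on a log2(value + 0.1) scale, had a median of 0.10 over 5663 genes, with 0.07 in replicate 1 and 0.14 in replicate 2. It was above 0 in 34.5% of genes in both replicates and below 0 in both in 18.2%. Both 15 min libraries lay above both 8 min libraries at 1382 genes (24.4%) and below them at 653 (11.5%). With limma, fitted over the 10 nascent libraries at 2, 4, 6, 8 and 15 min, 1 gene was higher at 15 min at an adjusted p under 0.05 (0.0177% of genes tested) and 0 were lower, while 454 genes (8.02%) had an unadjusted p under 0.05. The changes of the 2 replicates had a correlation of 0.08 across these genes, which are not independent replicates. A single promoter holds few fragments and its change had a median standard error of 0.34, so a modest rise spread over many promoters could not be seen at any one of them.

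The gene past the threshold was PRP5 (YBR237W), which encodes a DEAD-box ATPase of early spliceosome assembly. Its promoter over body was listed at 0 in both replicates at 8 min and was 0.66 and 0.489 at 15 min, with 0.464 in bulk. The groups were far apart, and the 15 min libraries were close to the bulk level. The promoter signal itself, not divided, went from 0 and 0 to 0.309 and 0.347, or from 0 and 0 to a mean of 7.17 and 17.1 fragments per bin. The fitted log2 change was 2.74 ± 0.24 (SE, adjusted p = 0.00637 with limma and 0.0174 with the replicate block). Its size depends on the pseudocount and is no bound because both 8 min libraries are at 0. The SE and p lean on that floor too. Some bins of PRP5 were at 0 in every library from 2 to 8 min, and replicates that are both at 0 show no spread. From −30 to 50 bp all 5 bins of PRP5 had one and the same value at 15 min, 15 fragments in replicate 1 and 33 in replicate 2, and neighbouring bins there may share their fragments. The call was lost on the 4 libraries alone (adjusted p = 0.243, and 0.808 with the block), with a pseudocount of 1 (0.203) and on forward or reverse strands alone (0.783 and 0.257). Without 8 min replicate 1, 8 min replicate 2 or 15 min replicate 1 it was lost too, with adjusted p of 0.121, 0.121 and 0.102, and without 15 min replicate 2 it held at 0.0399.

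PRP5 shares its upstream region with ABD1, the mRNA cap methyltransferase gene, which is read in the opposite direction from a TSS 300 bp away. Across all genes, 3709 bins were listed at 0 in all 8 libraries from 2 to 8 min. Of these, 22 were above 0.2 in both 15 min libraries, and they belonged to 3 genes, PRP5, ABD1 and AIM29. Bins of PRP5 and ABD1 can cover the same DNA, so the 22 need not be separate positions. In the bulk library 21 of the 22 were above 0.2 too. No bin was above 0.2 in both libraries at 2, 4, 6 or 8 min and at 0 in the others of that set. These bins thus gave no fragment in any of 8 nascent libraries and did so in both replicates at 15 min.

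YTM1 (YOR272W), a factor of large ribosomal subunit assembly, had 0.125 and 0.155 at 8 min and 0.801 and 0.675 at 15 min. TYE7 (YOR344C), an activator of glycolytic genes, had 0.122 and 0.178 at 8 min and 1.12 and 0.84 at 15 min. At both genes the groups did not overlap, and neither passed the threshold, with log2 changes of 1.80 ± 0.23 (adjusted p = 0.0691, limma) and 2.11 ± 0.29 (adjusted p = 0.0912). In the other direction, RPL24A (YGL031C), which encodes a protein of the large ribosomal subunit, had 0.735 and 0.758 at 8 min and 0.24 and 0.236 at 15 min, against 0.621 in bulk. From 2 to 6 min RPL24A lay between 0.175 and 0.499, so that 8 min was high among the times, and YTM1 and TYE7 lay between 0.278 and 0.436 and between 0.256 and 0.654, above both of their 8 min values. The RPL24A log2 change was −1.32 ± 0.32 (adjusted p = 0.449). YDR526C had 0.475 and 0.658 at 8 min and 0.225 and 0.111 at 15 min. YPR159C-A had 4.12 and 2.72 and then 0.802 and 0.746, yet with the promoter not divided by the body its log2 change was 0.25, in the other direction. Only 5 bins are listed downstream of its TSS, so its body window is short.

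**Figure D2:**
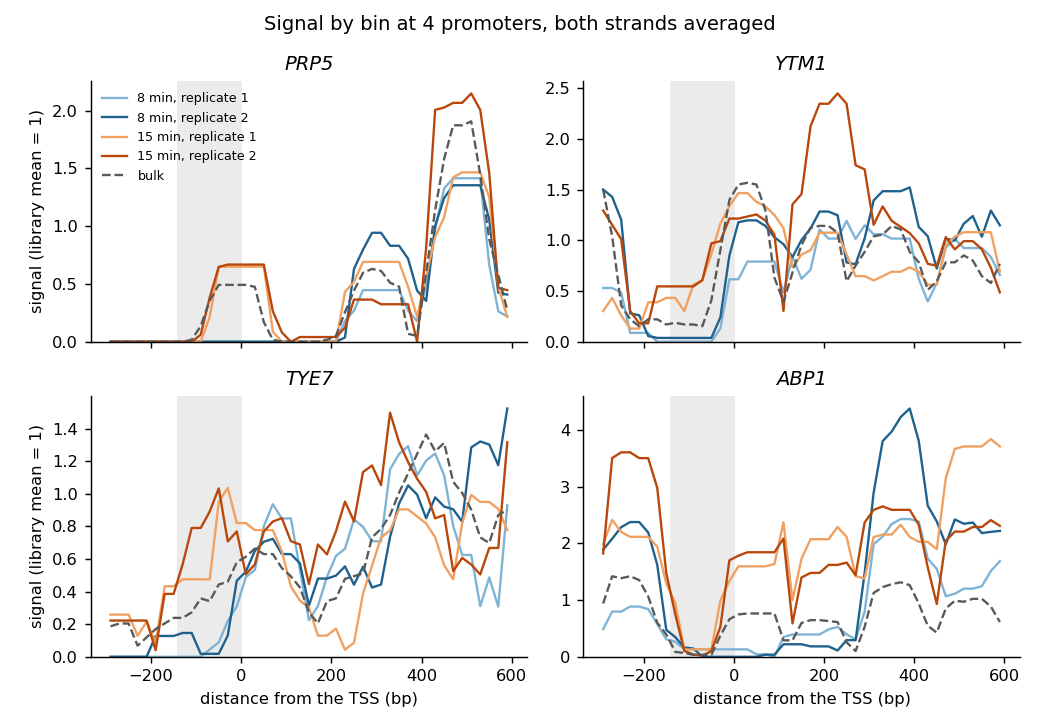
Signal by bin (library mean = 1, both strands averaged) against distance from the TSS in bp at PRP5, YTM1, TYE7 and ABP1. Lines are the 4 libraries and bulk, and the promoter bins are shaded. At PRP5 both 8 min lines lie at 0 through the promoter while both 15 min lines rise to 0.65 and 0.668. In the ABP1 bin centred at 10 bp the 15 min lines reach 1.59 and 1.78, far above the 8 min lines (0.131 and 0).

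The promoters of the 3 genes with the smallest p for a rise are printed here, with that of RPL24A as an example of a fall, because the results on single promoters turn on them. They are RefSeq sequences of assembly R64, from 250 bp before to 50 bp after each gene's annotated start and in the direction of the gene, with matches to the motifs in capitals. The Reb1 motif was searched as TTACCCG on both strands, and the box that binds TBP as TATAAA likewise. An A tract was a run of AAAAAAA on either strand. The motif of SBF was searched as CGCGAAA, and that of MBF, which shares letters with it, as ACGCGT. Abf1 was searched by its motif with a spacer of 6 bases. PRP5 is at chrII:691719-692018 on the plus strand, YTM1 at chrXV:832563-832862 on the plus strand, TYE7 at chrXV:978020-978319 on the minus strand and RPL24A at chrVII:437885-438184 on the minus strand.
PRP5: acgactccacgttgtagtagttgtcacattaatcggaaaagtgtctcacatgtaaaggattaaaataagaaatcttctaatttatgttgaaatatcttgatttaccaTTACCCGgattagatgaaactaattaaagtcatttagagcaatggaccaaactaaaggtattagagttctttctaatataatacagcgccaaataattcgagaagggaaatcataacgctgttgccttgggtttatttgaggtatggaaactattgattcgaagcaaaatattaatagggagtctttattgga
YTM1: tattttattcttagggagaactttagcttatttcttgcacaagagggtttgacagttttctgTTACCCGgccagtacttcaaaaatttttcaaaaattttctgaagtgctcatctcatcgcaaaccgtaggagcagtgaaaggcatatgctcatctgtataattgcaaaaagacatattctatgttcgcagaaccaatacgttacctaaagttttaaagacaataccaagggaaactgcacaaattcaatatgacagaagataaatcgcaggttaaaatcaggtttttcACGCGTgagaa
TYE7: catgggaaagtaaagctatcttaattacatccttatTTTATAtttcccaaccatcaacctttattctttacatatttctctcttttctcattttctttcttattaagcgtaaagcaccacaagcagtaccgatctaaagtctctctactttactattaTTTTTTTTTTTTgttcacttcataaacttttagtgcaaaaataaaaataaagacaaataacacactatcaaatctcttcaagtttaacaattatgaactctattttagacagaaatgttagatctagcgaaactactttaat
RPL24A: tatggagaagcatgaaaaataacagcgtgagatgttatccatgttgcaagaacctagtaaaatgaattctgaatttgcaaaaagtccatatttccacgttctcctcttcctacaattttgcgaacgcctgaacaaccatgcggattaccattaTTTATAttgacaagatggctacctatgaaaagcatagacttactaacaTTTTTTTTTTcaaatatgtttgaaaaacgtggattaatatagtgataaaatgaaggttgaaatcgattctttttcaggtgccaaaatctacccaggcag

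PRP5 and YTM1, 2 of the 3 genes with the smallest p for a rise, each had a Reb1 match, at −143 and −188 bp, and 7.32% of all 5695 promoters have one. YTM1 also had an MBF match at 40 bp, past its annotated start, and 3.11% of promoters have one. TYE7 had no Reb1 match, a TATA match at −214 bp and a run of T from −92 bp, and its GC content of 27.3% was above that of only 0.773% of promoters (median 36%). RPL24A had a TATA match at −97 bp and a run of T from −49 bp. TATA letters occur in 44.2% of promoters and A tracts in 50.9%, so neither sets these promoters apart. A match describes the letters only. The TSS in the tables was a median of 2 bp downstream of the RefSeq start codon, with 50.8% of them inside the coding part, so letters and bins cannot be laid side by side.

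The +1 nucleosome moved less at single genes. The +1 signal, the mean of 0 to 100 bp over the mean of 0 to 1000 bp, had a median log2 change of 0.06 over 5659 genes. It was higher in both replicates at 31.6% of genes and lower in both at 20.3%, and the 15 min libraries lay wholly above at 22.5% and wholly below at 13.5%. No gene passed the threshold with limma (0% of genes tested, 517 or 9.14% at an unadjusted p under 0.05). The 2 smallest adjusted p were those of PRP5 and ABP1. PRP5 was at 0 in both 8 min libraries here too, and at 0.868 and 0.661 at 15 min (adjusted p = 0.0737).

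ABP1 (YCR088W), which encodes an actin-binding protein of cortical actin patches, had 0.0599 and 0.00881 at 8 min and 0.73 and 0.954 at 15 min. Its +1 signal before division went from 0.0699 and 0.0150 to 1.60 and 1.83, against 0.760 in bulk, so that the +1 position was nearly empty in both 8 min libraries and above bulk in both 15 min libraries. The log2 change was 2.83 ± 0.28 (adjusted p = 0.0737, limma), and ABP1 and PRP5 were the 2 genes past the threshold when the test was limited to genes with a RefSeq match. The ABP1 promoter, at chrIII:264818-265117 on the plus strand of R64, is printed because its +1 change was among the 2 with the smallest p. It holds TATA matches at −181 and −57 bp and an A tract at −102 bp, shown in capitals.
ABP1: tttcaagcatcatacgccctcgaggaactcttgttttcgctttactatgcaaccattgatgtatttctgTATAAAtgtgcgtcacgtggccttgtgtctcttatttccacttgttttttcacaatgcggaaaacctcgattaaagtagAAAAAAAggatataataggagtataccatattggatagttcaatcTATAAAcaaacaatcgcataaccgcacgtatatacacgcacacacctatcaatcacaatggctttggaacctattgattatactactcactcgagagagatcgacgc

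ECM16 (YMR128W), a helicase of 18S rRNA processing, had a +1 signal of 0.72 and 0.793 at 8 min and of 1.82 and 1.92 at 15 min, with 1.15 in bulk. Its log2 change of 1.20 ± 0.14 did not pass (adjusted p = 0.129, limma). On the other side, YIL012W went from 1.87 and 1.72 to 0.617 and 0.677, COQ21 (YBR230W-A) from 2.93 and 2.79 to 1.52 and 1.56, and YIL156W-A from 1.75 and 1.66 to 0.846 and 0.983. In each of these 4 genes the replicates were close and the groups did not overlap, which choosing genes by smallest p favours. The log2 changes of the 3 falls were −1.34, −0.85 and −0.83, with adjusted p from 0.129 to 0.317 (limma).

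The gene body signal, the mean from 0 to 1000 bp relative to the library, asks how much labelled nucleosomal DNA a gene contributed at each time. For short genes the mean covers only the bins listed, such as 13 bins of 20 bp at YKR075W-A and 16 at YKR073C. At 4 genes it rose past the threshold, and at 0 it fell. They were YKR075W-A, YKR073C and YKR075C, 3 near neighbours on chromosome XI, and HIS2 on chromosome VI. All 4 were low at 8 min and nearer to or above the bulk level at 15 min. Over 5678 genes the median log2 change was −0.02, with 25.8% of genes higher in both replicates and 30.9% lower in both. The 4 genes are 0.0704% of those tested, and 331 genes (5.83%) had an unadjusted p under 0.05 in either direction (limma). In all, 13.7% of genes lay wholly above and 18% wholly below.

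YKR075W-A had body signals of 0.0791 and 0.0917 at 8 min and of 0.655 and 0.68 at 15 min, with 0.341 in bulk. It was almost bare in both 8 min libraries, with 1.79 and 4.96 fragments per bin, and rose to 15.2 and 33.6. The log2 change was 2.05 ± 0.22 (adjusted p = 9.98e-05, limma). YKR075C, which is read from the opposite strand, had 0.379 and 0.259 at 8 min and 0.86 and 1.14 at 15 min, and its log2 change was 1.39 ± 0.21 (adjusted p = 0.00452). The call of YKR075C was lost without 8 min replicate 2 (adjusted p = 0.0722) and on reverse strands alone (0.516). The TSSs of these 2 genes are 570 bp apart and the strands were averaged, so their body windows share coverage and the 2 calls are not separate observations. YKR073C had 0.0683 and 0.0739 at 8 min and 0.364 and 0.756 at 15 min (log2 change 1.88 ± 0.27, adjusted p = 0.0028). At 6 min, however, YKR073C stood at 0.502 and 0.579, so the 8 min libraries were low against the time before them as well as against 15 min.

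HIS2 (YFR025C), which encodes histidinol phosphatase of histidine synthesis, had body signals of 0.0729 and 0.352 at 8 min and of 0.749 and 0.985 at 15 min, with 0.832 in bulk. Both 15 min libraries were above both 8 min libraries, and the 8 min replicates themselves differed widely. Its log2 change was 1.78 ± 0.33, and its call was lost with the replicate block (adjusted p = 0.0494 without it and 0.151 with it, limma), as it was without 8 min replicate 1 (0.766), 15 min replicate 1 (0.0798) or 15 min replicate 2 (0.149). SAK1 (YER129W), a kinase that activates Snf1, was called with the block and not without it in the 10-library test. It had 0.459 and 0.477 at 8 min and 0.987 and 1.04 at 15 min (log2 change 0.97 ± 0.19, adjusted p = 0.0515 without the block and 0.0259 with it). The gene with the smallest p among falls was PLS1 (YNL097C-B), with 1.63 and 1.25 at 8 min and 0.646 and 0.567 at 15 min (adjusted p = 0.0646, and 0.0299 on the 4 libraries alone, 0.0111 with the block on them and 0.0103 without the 4 min libraries). Those settings called 2, 2 and 3 falls. YBL094C and YBR178W were next, with log2 changes of −0.92 and −1.10 and adjusted p of 0.302 and 0.339. The number of genes past the threshold for the body depended on single libraries, with 9 genes without 8 min replicate 2 and 14 without 15 min replicate 2, of which 3 rose and 11 fell. None of the 4 genes could be tested with a minimum mean body signal of 0.5.

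**Figure D3:**
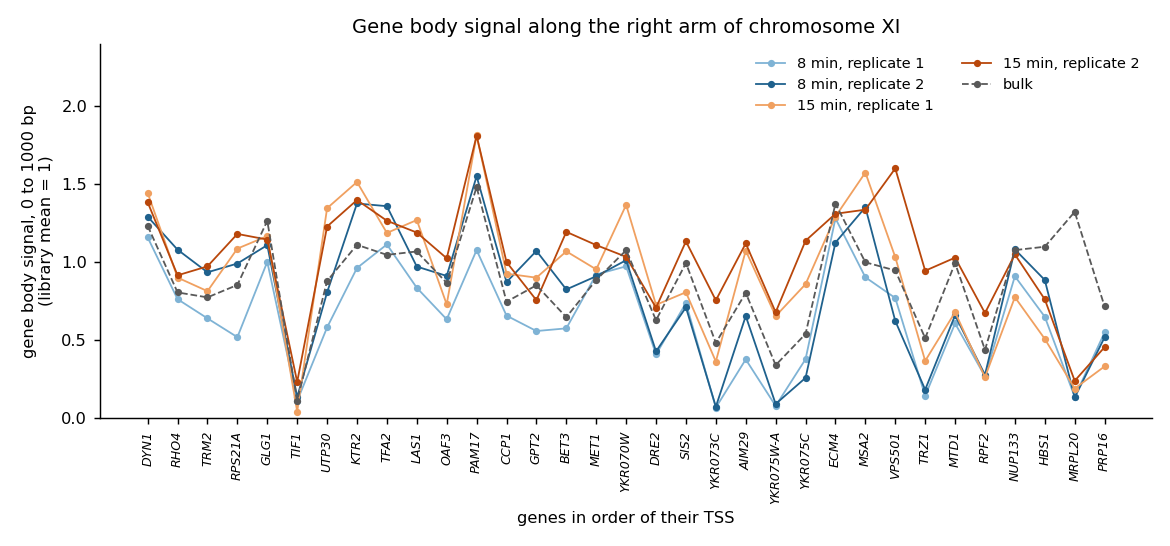
Gene body signal (0 to 1000 bp) of successive genes on the right arm of chromosome XI in the 4 libraries and bulk. The mean signal over the genes kept was 0.99 in both replicate 1 libraries, 1.14 in both replicate 2 libraries and 1.07 in bulk. YKR073C, YKR075W-A and YKR075C lie low at 8 min and near or above bulk at 15 min, and from TRZ1 to RPF2 replicate 2 at 15 min is the highest line.

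Along chromosome XI the 8 min libraries were below the 15 min ones at further genes, though often below the 6 min ones as well. DRE2, an iron-sulfur cluster assembly factor, had 0.409 and 0.429 at 8 min and 0.727 and 0.708 at 15 min. BET3, a subunit of the TRAPP vesicle tether, had 0.576 and 0.826 and then 1.07 and 1.20, and AIM29 had 0.377 and 0.655 and then 1.07 and 1.12. None of these 3 passed the threshold (adjusted p = 0.538, 0.649 and 0.302, limma), although at each of them both 15 min libraries were above both 8 min libraries. At 6 min DRE2 stood at 0.724 and 0.802, BET3 at 0.907 and 1.21 and AIM29 at 0.477 and 0.693, so that DRE2 and BET3 were already near their 15 min values at 6 min and low at 8 min, while AIM29 was not. TRZ1, the tRNA 3′ processing enzyme, had 0.144 and 0.183 at 8 min and 0.368 and 0.946 at 15 min (adjusted p = 0.0646). At RPF2, a factor of ribosome assembly, only replicate 2 was higher at 15 min, with 0.269 and 0.278 and then 0.263 and 0.675. Farther along, NUP133 and HBS1 were lower at 15 min than at 8 min in each replicate, and MRPL20 was far below its bulk signal of 1.32 in all 4 libraries, at 0.137 and 0.133 and then 0.19 and 0.24.

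To ask whether neighbouring genes moved together elsewhere, the median body signal of the genes in each 20 kb window was tested, a step added after the gene results had been seen. With 530 windows of at least 5 genes, 0 passed without a block (0% of windows, 15 or 2.83% at an unadjusted p under 0.05, limma). Both 15 min libraries lay above both 8 min libraries in 7.74% of windows and below in 13.6%, and 25.8% of windows were higher and 39.4% lower in both replicates. With the replicate block 10 passed, 4 higher and 6 lower. The changes of the replicates had a correlation of 0.42 across windows, and of 0.42 without chromosome XI, against 0.20 across genes. The windows come from the same 4 libraries and share their depth.

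The 4 windows that rose with the block were on chromosomes X, V, VI and XI. On chromosome X, from FIP1, a factor of mRNA polyadenylation, to VPS25, a subunit of ESCRT-II, the median body signal went from 0.919 and 1.04 to 1.17 and 1.48 (adjusted p = 0.0259, limma with the block). All 11 genes of this window were higher in both replicates, and 9 had no overlap, against 25.8% and 13.7% of all genes. The windows were picked by the rise of their median in these same libraries, so such counts follow in part from the choice. On chromosome V, from AVT6 to SAK1, it was 0.595 and 0.686 and then 0.773 and 0.955 (adjusted p = 0.0259), with 9 of 12 genes higher in both. On chromosome XI, from LAS1 to YKR075W-A, it was 0.634 and 0.873 and then 0.927 and 1.04 (adjusted p = 0.0446), with 12 of 13 genes higher in both and 11 without overlap. At 6 min the window from LAS1 had stood at 0.907 and 1.17, near its 15 min values, whereas that from FIP1 had stood at 0.883 and 1.05, near its 8 min values. The window on chromosome VI, from PES4 to MET10, holds HIS2 and went from 0.836 and 1.05 to 1.10 and 1.32.

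The 6 windows that fell with the block held genes from MPA43 to NAR1 on chromosome XIV, from PEX22 to GCV3 on chromosome I, from BRN1 to TEL1 on chromosome II and 3 stretches of chromosome XV. The window with the largest fall was that on chromosome XIV, with 1.21 and 1.47 at 8 min and 0.915 and 1.07 at 15 min (adjusted p = 0.0355, limma with the block). The windows on chromosome XV led from ENB1 to ZPS1, from RPB8 to IRC13 and from GSP2 to ULS1. BRN1 encodes a condensin subunit and TEL1 a checkpoint kinase, and their window had 1.21 and 1.43 at 8 min and 0.971 and 1.08 at 15 min. In both windows given with values here both 15 min libraries lay below both 8 min libraries.

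The tables list a replication time for each gene, in a unit that they do not state. In the quintile of genes with the lowest listed times the body signal had a median log2 change of 0.06 in replicate 1 and 0.10 in replicate 2, and 24.4% of them lay wholly above and 9.96% wholly below. The next quintile was near 0, at −0.02 and 0.01. The remaining quintiles were negative in both replicates, between −0.04 and −0.03 in replicate 1 with no order among them and between −0.05 and −0.08 in replicate 2. In the quintile with the highest times the medians were −0.03 and −0.08, and 9.43% lay wholly above and 22.3% wholly below. Both replicates thus gave a positive change in the lowest quintile and negative changes in the upper 3. GC content moved with the change as well, with a correlation across 5087 genes between body signal and GC of −0.10 and −0.08 at 8 min and of −0.19 and −0.21 at 15 min. With GC regressed out of the change, the lowest quintile had 0.07 and 0.10 and the highest −0.05 and −0.09.

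Which end of the listed times is early cannot be taken from the study's own gene lists. The 228 genes of its early list in the tables had a median listed time of 49.8 and the 195 of its late list 44.5, the reverse order if low means early. In body signal the early list had 31 of 193 genes wholly above and 29 wholly below, with a median log2 change of 0.00, and the late list had 16 of 179 above and 39 below (8.94% and 21.8%, against 13.7% and 18% of all genes), with −0.04, against −0.02 over all genes. No gene of either list passed the threshold.

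**Figure D4:**
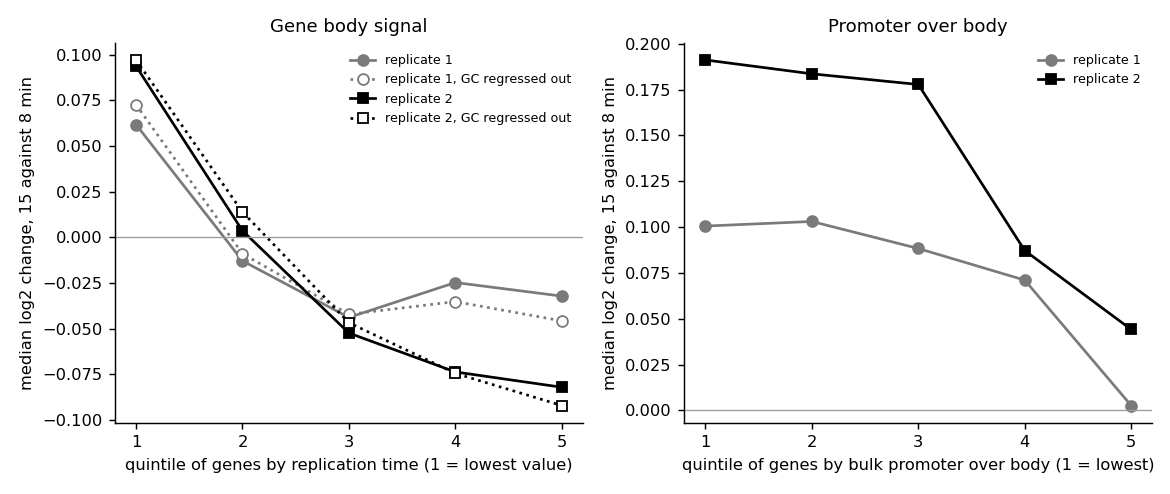
Median log2 change of 15 against 8 min in each replicate, for the body signal by quintile of listed replication time (left, open points with GC regressed out) and for promoter over body by quintile of bulk promoter over body (right). The body change is positive in the lowest quintile and negative in the upper 3, and the promoter change is smallest where the bulk promoter is most filled, at 0.00 and 0.04.

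Promoters that are most filled in bulk had the smallest median changes, an order that was not tested. In the quintile of genes with the lowest bulk promoter over body (median 0.198) the median log2 change was 0.10 in replicate 1 and 0.19 in replicate 2, and in the highest quintile (median 1.24) it was 0.00 and 0.04. The medians of the lowest quintile were 0.245 and 0.247 at 8 min and 0.260 and 0.292 at 15 min, all above the bulk median that chose them. The change also ran with promoter GC content, from 0.13 and 0.21 in the quintile with the lowest GC to 0.03 and 0.12 in the highest. By RNA polymerase II occupancy and by SAGA or TFIID class, as the tables list them, no such order was seen, and TFIID-dominated promoters had 0.08 and 0.15 against 0.08 and 0.19 for SAGA-dominated ones.

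Gene groups tied to chromatin, replication and the cell cycle were followed as lists. No member of any list passed the threshold in promoter over body or in body signal, so members are given by their values and by how many of them had no overlap. Among G1/S genes, which start the cell cycle, 7 of 15 promoters lay wholly above and 1 wholly below (46.7% and 6.67%, against 24.4% and 11.5% of all genes), with a median log2 change of 0.40 against 0.10 over all genes. CLN1, a G1 cyclin, had a promoter over body of 0.413 and 0.663 at 8 min and of 1.45 and 0.723 at 15 min. PCL2, a cyclin of the Pho85 kinase, went from 1.4 and 1.48 to 0.776 and 1.19. Among daughter-specific genes, which act in cell separation, 5 of 9 promoters lay wholly above and 1 below (55.6% and 11.1%, against 24.4% and 11.5% of all genes), with a median of 0.36. DSE4, a glucanase of that group, had 4.15 and 3.29 and then 5.19 and 7.66.

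Glycolytic genes had 4 of 16 promoters wholly above and 1 below (25% and 6.25%, against 24.4% and 11.5% of all genes), and their median was 0.34. CDC19, pyruvate kinase, had a promoter over body of 0.251 and 0.308 at 8 min and 0.851 and 0.645 at 15 min, and TDH2, a glyceraldehyde-3-phosphate dehydrogenase, 0.339 and 0.15 and then 0.0143 and 0.068. Neither change passed (adjusted p = 0.425 and 0.562, limma), and the TDH2 promoter held only 3.40 and 5.43 and then 0.142 and 2.56 fragments per bin. In the same libraries the CDC19 body signal was lower at 15 min, at 0.895 and 0.831 and then 0.675 and 0.449, without overlap. Of 136 ribosomal protein genes, 18 lie on chromosome XII and the promoters of the others were tested. Of these, 34 lay wholly above and 9 below (28.8% and 7.63%, against 24.4% and 11.5% of all genes), with medians that differed between replicates, −0.01 in replicate 1 and 0.40 in replicate 2. RPS9A, of the small subunit, had 0.0638 and 0.0393 and then 0.511 and 0.428, and RPL1A, of the large subunit, 1.41 and 2.06 and then 0.604 and 0.475. The RPS9A promoter held only 1.14 and 1.42 fragments per bin at 8 min, and that of RPL1A 1.14 and 2.43 at 15 min. Many ribosomal protein genes, RPS9A and RPL1A among them, have near-identical copies whose reads the alignment could split, so their values are uncertain.

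The histone genes, whose products the new DNA takes up, had 2 of 10 promoters wholly above and 0 below (20% and 0%, against 24.4% and 11.5% of all genes). HHT1, coding for H3, had a promoter over body of 0.221 and 0.574 at 8 min and of 0.612 and 1.09 at 15 min, and HHF2, coding for H4, 0.698 and 0.781 and then 0.335 and 0.767. In body signal 4 of the 10 lay wholly above and 0 below (40% and 0%, against 13.7% and 18% of all genes), with a median of 0.15 against −0.02 over all genes. HTB1, coding for H2B, had body signals of 0.774 and 1.08 and then 1.21 and 1.41 (adjusted p = 0.846, limma), and HTZ1, coding for H2A.Z, had 0.743 and 0.937 and then 0.56 and 0.76, with overlap. The genes for H2A, H2B, H3 and H4, with HHT1, HHF2 and HTB1 among them, come as near-identical pairs too, and their values carry the same doubt.

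Genes of histone chaperones and the H3K56 acetylation cycle had 1 of 17 bodies wholly above and 5 below (5.88% and 29.4%, against 13.7% and 18% of all genes), with a median log2 change of −0.07. POB3, a subunit of FACT, had body signals of 1.15 and 1.48 at 8 min and of 1.75 and 1.88 at 15 min, whereas NAP1, a chaperone of H2A and H2B, had 1.37 and 1.37 and then 0.914 and 0.932. Neither passed (adjusted p = 0.776 and 0.702, limma). Among 25 chromatin remodeler genes 6 promoters lay wholly above and 0 below (24% and 0%, against 24.4% and 11.5% of all genes), and in body signal 2 lay above and 6 below (8% and 24%, against 13.7% and 18%). RSC1, a subunit of RSC, had a promoter over body of 0.212 and 0.181 and then 0.394 and 0.419. SNF5, of SWI/SNF, had body signals of 1.08 and 1.37 and then 0.706 and 1.14, with overlap. Replisome genes had 7 of 28 promoters above and 1 below (25% and 3.57%, against 24.4% and 11.5% of all genes). POL30, coding for PCNA, had 0.291 and 0.441 and then 0.55 and 0.866, and DPB3, a subunit of DNA polymerase epsilon, 0.151 and 0.315 and then 0 and 0.304. The DPB3 promoter held only 1.27 and 5.11 and then 0 and 2.85 fragments per bin.

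The genes of general regulatory factors and of heat shock proteins complete the lists. Of the 8 general regulatory factor genes 1 promoter lay wholly above and 0 below (12.5%, against 24.4% of all genes), and it was that of REB1, with 0.0853 and 0.00432 at 8 min and 0.19 and 0.12 at 15 min. Among heat shock protein genes 3 of 15 promoters lay above and 1 below (20% and 6.67%, against 24.4% and 11.5% of all genes), and in body signal 2 lay above and 6 below (13.3% and 40%, against 13.7% and 18%). HSP30 had a promoter over body of 0.532 and 0.652 and then 1.19 and 1.25, without overlap. SSA1, a cytosolic Hsp70, rose in value from 0.795 and 0.688 to 1.05 and 1.09 in body signal, while SSA3, another Hsp70, had 1.55 and 1.72 and then 1.10 and 1.23.

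Some genes were followed because the labels, the study or earlier results on these data name them. CHD1 had a promoter over body of 0.849 and 0.812 at 8 min and of 0.973 and 1.03 at 15 min. The thioredoxin reductase gene TRR1 had 0.518 and 0.492 and then 0.553 and 0.367, with overlap. AVT6, a vacuolar amino acid exporter gene, had 0.472 and 0.224 and then 0.485 and 0.641, and its log2 change of 0.61 was −0.33 on forward strands and 3.03 on reverse strands, where it passed (adjusted p = 0.0342, limma). DSE1, a daughter-specific gene, had 0.627 and 0.791 and then 0.749 and 1.56, with overlap, while its body signal went from 0.498 and 0.676 to 1.19 and 0.917 without overlap. YCL041C had 1.73 and 1.34 and then 2.76 and 2.16, and YBR219C had 0.203 and 0.354 and then 0.626 and 0.582. With both strands none of these changes passed the threshold (adjusted p from 0.451 to 0.973 for promoter over body and 0.464 for the DSE1 body, limma).

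The contrast between nucleosomes and linkers within a gene body was tested as the mean of the bins at the peaks of +2 to +7 over the mean at the troughs between them, with positions taken from bulk. Over 3433 genes with values at all these bins its median log2 change was 0.00, with 25.1% of genes higher and 24.1% lower in both replicates, and the groups lay wholly above at 16.7% and wholly below at 16.1%. It was lower at 15 min past the threshold at 2 genes (0.0583%) and higher at 0 (204 or 5.94% in either direction at an unadjusted p under 0.05, limma). Both lie in the stretch of chromosome XI described above, and at both the body signal was higher at 15 min.

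YKR075C had a contrast of 1.75 and 2.28 at 8 min and of 0.972 and 1.19 at 15 min, with 1.25 in bulk (log2 change −0.84 ± 0.11, adjusted p = 0.00949, limma). TRZ1 had 2.05 and 1.79 and then 1.11 and 1.18, with 1.58 in bulk, and its log2 change was −0.70 ± 0.12 (adjusted p = 0.0405 without the replicate block and 0.0849 with it). The TRZ1 call was lost whichever of the 4 libraries was left out (adjusted p from 0.113 to 0.529), and that of YKR075C without 8 min replicate 2 (0.113) or 15 min replicate 1 (0.248). Both genes were above bulk at 8 min and below it at 15 min. Among the rises, HEK2, an RNA-binding protein gene, had 0.954 and 0.884 and then 1.3 and 1.21, CUP9, a transcriptional repressor gene, had 0.98 and 0.917 and then 1.26 and 1.26, and ABD1, the neighbour of PRP5, had 0.985 and 0.974 and then 1.19 and 1.45. None of the 3 passed (adjusted p from 0.225 to 0.265). Without 15 min replicate 1 no gene passed, and without 8 min replicate 2 or 15 min replicate 2 only 1 did.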

How the data were processed

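The deposited files gave fragment coverage in 20 bp bins around the TSS, which the authors had scaled to a library mean of about 1. Per the labels, base calling used CASAVA 1.7.0 (submitters' processing notes). The aligner and the genome build of the tables are not given in the sources used here. These deposited signal values are neither counts nor a logarithm, so log2(value + 0.1) was tested with limma 3.58.1 in R 4.3.3 (Python 3.11.15 elsewhere). Of the table cells, 217828 held the letter R and 910 NaN and were treated as missing, and 37956 lines of 6 names that match no label were not used. The deposited replication time, RNA polymerase II occupancy and promoter class were taken as the authors listed them per gene.

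Genes off chromosome XII with body signal above 0 in all 10 libraries were fitted with time as a factor, and p-values were adjusted by Benjamini-Hochberg over all genes of a measure. They measure the spread between 2 cultures per time, which is understated where both replicates sit at 0. Each replicate number marks aliquots of 1 culture, so the block pairs them by the growth protocol. The correlation of the replicate difference at 8 with that at 15 min was 0.02 over 5678 genes, and between −0.02 and 0.07 over 10 pairs of times. Where 1 library was left out, the lone one was assumed to vary as the others do. On simulated data a log2 change of 1 was recovered at 0% of promoters, 9% of +1, 65% of bodies and 99.5% of contrasts, and a change of 2 at 77%, 76.5%, 98.5% and 100%. RefSeq R64 names and sequences matched 5699 of 6326 genes. One further motif is not reported here.

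Named genes were, per measure and direction, up to 6 past the threshold with both replicates agreeing or, with fewer than 3, the 3 of smallest p, plus genes named by the labels, the study or earlier results and the extremes of each list. Genes described along chromosome XI and the windows were chosen after their values were seen, as were the alternatives with RefSeq genes only and with GC content. The members and lists were chosen with earlier results of these data known. The study's early and late lists shared 6 genes, which were removed.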

Additional observations from a re-analysis of the deposited data

Results flagged for a closer look

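The nascent library at 25 min, which exists in replicate 2 only and enters no comparison above, had a promoter over body of 1.11 in its average profile, above the 0.633 of the bulk library and above the 0.633 and 0.666 at 15 min. Its NDR depth was 0.918 against 0.525 for replicate 2 at 15 min. The 25 min library still had a promoter dip, from 1.31 at −210 bp down to 0.918 at −90 bp and back up to 1.41 at 30 bp. Its distance from the bulk profile was 0.196, against 0.0476 for replicate 2 at 15 min. It has no replicate, and its part in any trend beyond 15 min was not tested.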

How the results depend on the processing

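Gene counts were small and moved with the settings. For promoter over body, the 1 gene past the threshold became 0 with the 4 libraries at 8 and 15 min alone, 0 with the replicate block on those 4, 0 with a pseudocount of 1 and 0 on forward strands, and 3 with a pseudocount of 0.01, 3 with a mean body signal of at least 0.5, 3 with a window from −250 bp and 4 without division by the body. Leaving out 1 library gave 0 to 1. For +1, the 0 became 1 with a pseudocount of 0.01, and 2 with the body minimum of 0.5, median centring, reverse strands, RefSeq genes only, GC regressed out, GC with the replicate block or a body window from 120 bp. For the body, the 4 became 10 with the 4 libraries alone, 16 with the replicate block on them, 15 without the 4 min libraries, 8 with RefSeq genes only, 8 with GC regressed out, and 0 with no filter, with the minimum of 0.5 or on forward strands. Leaving out 1 library gave 4 to 14. For the contrast, the 2 became 1 with the 4 libraries alone, 1 with the replicate block, 1 with the block and GC regressed out, 1 with a pseudocount of 1 and 1 on forward strands, and 0 with the minimum of 0.5 and 0 on reverse strands. Leaving out 1 library gave 0 to 2. The 0 windows became 10 with the replicate block, 30 with quantile normalization and 2 with median centring. The cause of these moves was not tested, save that the minimum of 0.5 removes the 4 body genes from the test.

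The block changed no other gene named above. Of the profile measures, the NDR difference of 0.0307 was 0.0546 with medians over genes and 0.0143 to 0.0471 with 1 replicate left out, that of the +1 height 0.0735 with medians and 0.063 with complete genes, and that of the distance from bulk −0.00546, −0.0119 without bins at 0 and −0.0232 with complete genes. Median centring, which sets the median promoter change of 0.10 near 0, took the share of genes higher in both replicates from 34.5% to 25.0% for promoters, from 31.6% to 26.3% for +1 and from 25.8% to 28.3% for bodies, and the +1 share was 29% on forward and 29.1% on reverse strands. The promoter changes that turned were YPR159C-A (0.25, not divided), TRR1 (0.53 on forward strands, 0.010 from −250 bp, 0.10 not divided, and −0.37 to 0.11 with 1 library left out), AVT6 (−0.33, and 3.03 on reverse strands) and DSE1 (−0.50) on forward strands, HHF2 (−0.95 to 0.048 with 1 library left out) and RPL1A (0.32 from −250 bp).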
